A study of Mus musculus with 10 samples.

Results

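Transcripts of 6 neutrophil genes were followed in mouse blood: the metalloproteinase genes Mmp8, Mmp9, Mmp25 and Adam8, and the neutrophil subset genes Olfm4 and Cd177. They were chosen by name, from a list headed as gelatinase (tertiary) granule protease and neutrophil subset genes. All 6 were found among the 32285 genes of the count table. Which granule class holds each protein was not measured here. The material was blood leukocytes of C57/BL6J mice, and each library pooled blood of 3 mice of 1 group. There were 10 libraries, 1 per group: sleep deprivation (SD) for 6, 12, 24 and 48 h, SASD, a sleep restriction method described before this study, for 6, 12, 24, 48 and 120 h, and a control at 0 h (Con). Blood was drawn behind the eye under pentobarbital in all groups. No source used here states the age or sex of the mice, the procedures of SD and SASD or the clock time of sampling.

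Neutrophils store their proteases in granules that form one after another as the cell matures in the bone marrow. Primary granules come first, then secondary granules, and gelatinase granules last, at the stage of the band and segmented cell. Gelatinase granules are the most readily released of these, and their enzymes and membrane proteins serve adhesion and passage through vessel walls. Mmp8 encodes the neutrophil collagenase, Mmp9 gelatinase B, and Mmp25 leukolysin, a matrix metalloproteinase tied to the membrane by a lipid anchor. Adam8 encodes a membrane-spanning metalloproteinase with a disintegrin domain that sheds surface proteins. Olfm4 encodes olfactomedin 4, a secreted granule glycoprotein found in only a subset of neutrophils, and Cd177 a lipid-anchored surface glycoprotein that, in humans, is carried by a subset of neutrophils and binds PECAM-1.

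The coding stretches below show what sets the 4 enzymes apart from the other genes: each holds the zinc-binding motif of the active site, in which histidines hold the catalytic metal. Each line gives 63 bases of the coding sequence, 5′ to 3′, with the 33 bases of the motif in capitals, from GENCODE release 21 of the mouse series.
Mmp8: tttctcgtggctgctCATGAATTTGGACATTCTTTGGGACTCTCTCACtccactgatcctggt
Mmp9: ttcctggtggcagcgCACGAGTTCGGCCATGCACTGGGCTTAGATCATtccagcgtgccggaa
Mmp25: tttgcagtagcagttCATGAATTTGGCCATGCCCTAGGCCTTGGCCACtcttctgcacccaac
Adam8: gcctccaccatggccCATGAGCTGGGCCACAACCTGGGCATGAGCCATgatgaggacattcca
The stretches lie at chr9:7563071-7563133 (Mmp8, plus strand), chr2:164951118-164951180 (Mmp9, plus), chr17:23632828-23632890 (Mmp25, minus) and chr7:139987878-139987940 (Adam8, minus) of mm10, each an unbroken stretch of the genome. The motif was found in 69 of 21562 coding genes searched (0.320%), and not in the coding sequences of Olfm4 (538 codons) or Cd177 (817 codons). Within the 33 bases Mmp25 shared 23 with Mmp8, 23 with Mmp9 and 22 with Adam8, while Mmp8 and Adam8 shared 17.

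The set of RefSeq promoters used here had an entry for 5 of the 6 genes (all but Mmp9). The 250 bases before the RefSeq start of transcription (GRCm38.p6) are shown for Mmp8 and Olfm4, the genes with a call in the tests below, and for Cd177, whose time course differed most from that of Olfm4.
Mmp8: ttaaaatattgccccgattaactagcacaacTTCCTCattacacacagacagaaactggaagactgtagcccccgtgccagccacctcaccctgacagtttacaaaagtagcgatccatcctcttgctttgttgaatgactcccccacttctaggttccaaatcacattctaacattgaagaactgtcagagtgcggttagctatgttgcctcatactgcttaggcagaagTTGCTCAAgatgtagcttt
Olfm4: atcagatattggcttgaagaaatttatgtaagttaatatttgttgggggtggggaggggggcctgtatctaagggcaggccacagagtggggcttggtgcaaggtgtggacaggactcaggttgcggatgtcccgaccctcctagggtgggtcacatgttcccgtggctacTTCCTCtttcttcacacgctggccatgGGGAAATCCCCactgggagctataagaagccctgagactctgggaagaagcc
Cd177: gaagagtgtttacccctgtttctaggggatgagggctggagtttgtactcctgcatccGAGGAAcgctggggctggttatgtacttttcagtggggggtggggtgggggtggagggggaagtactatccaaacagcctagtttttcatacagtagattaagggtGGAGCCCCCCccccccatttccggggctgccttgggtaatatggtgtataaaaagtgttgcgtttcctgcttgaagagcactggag
These are chr9:7558179-7558428 (plus strand), chr14:80000052-80000301 (plus) and chr7:24760312-24760561 (minus). Capitals mark matches, on either strand, to TTGCNNAA (a C/EBP motif), GAGGAA (PU.1 and other ETS factors), TGANTCA (AP-1) or the NF-kB consensus. Of 32851 promoters of the same length, 9.56% held the C/EBP letters, 23.3% GAGGAA, 6.75% the AP-1 letters and 7.25% the NF-kB consensus. The Mmp8 window held 1 match to TTGCNNAA, starting 19 bases before the start site, and 1 to GAGGAA. The Olfm4 window held 1 to GAGGAA. It also held 3 to the NF-kB consensus in a single run, starting 52, 52 and 51 bases before the start site. Those at 52 were the same bases read on either strand, so the 3 are not separate stretches. The Cd177 window held 1 match to GAGGAA and 1 to the NF-kB consensus. The AP-1 letters were in none (0) of these 3 windows. A match is a run of letters and was not tested as a binding site.

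Total counts ran from 7825120 to 27501393 per library. Haemoglobin genes took 0.727% of counts in Con and 0.316% and 0.275% in SD 48 h and SASD 48 h, against 3.57% to 6.96% in the other 7 libraries, so ratios of SD over SASD at one time stayed on the same side of this split, while those over Con crossed it at every time but 48 h. The same 3 libraries stood apart in olfactory genes: at equal depth, 15.6% of 1134 were detected in SD 48 h, 35.1% in SASD 48 h and 51.0% in Con, against 2.09% to 3.45% in the other 7. SD 48 h and SASD 48 h thus differed in this measure, and its part in their ratios was not tested. Every marker of B cells, T cells, NK cells, monocytes and mature neutrophils had counts in each library, as did those of platelets and red cells. The summed level of 10 mature neutrophil markers was 2591, 5070, 6139 and 10099.7 CPM (counts relative to library size, scaled by TMM) in SD 6, 12, 24 and 48 h and 1717 to 2223 CPM in the 5 SASD libraries, with 1917 CPM in Con. In bulk blood, a larger share of neutrophils and more of a transcript per neutrophil cannot be told apart from these levels.

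Per length, the order of the 6 transcripts was nearly the same in all libraries. Mmp9 was the highest, at 66.8 to 272 CPM per kilobase of exon, and Mmp8 came next, at 23.7 to 232. Adam8 lay at 8.73 to 37.7 and Cd177 at 6.19 to 52.0 CPM per kilobase. Adam8 ranked above Cd177 in 5 libraries (Con, and both methods at 6 and 12 h) and below it in the other 5. Mmp25, at 1.44 to 14.6, and Olfm4, at 0.471 to 6.62, were always the fifth and the sixth. Counts ranged from 2932 to 12508 per library for Mmp9 and from 9 to 289 for Olfm4, so the values of Olfm4 carried the widest counting error.

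**Figure D1:**
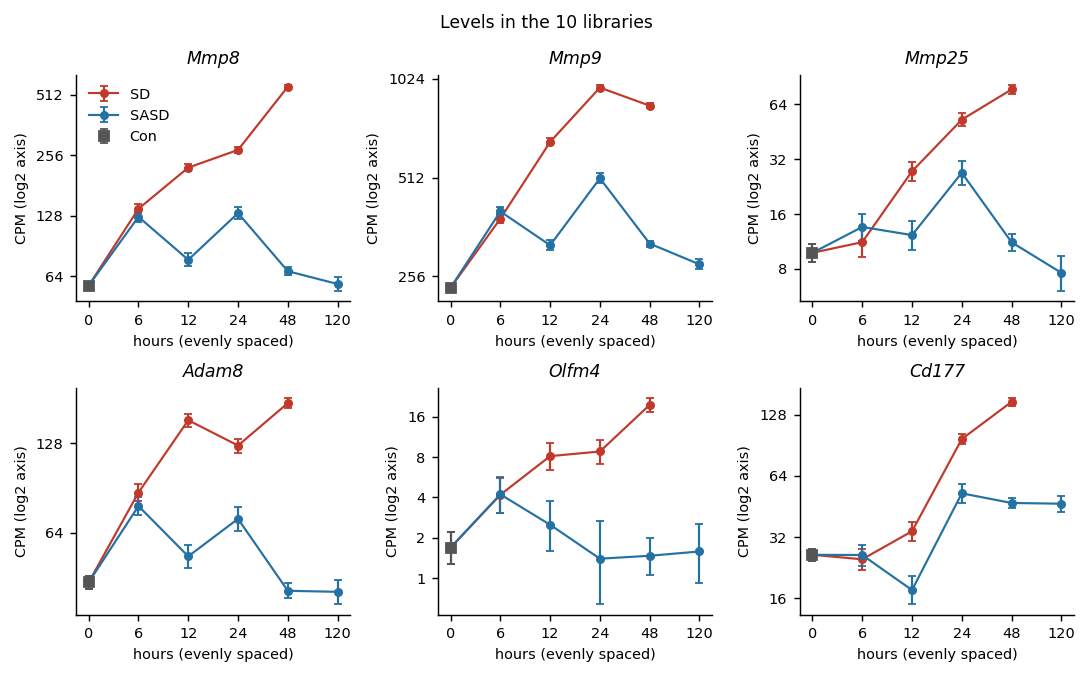
TMM-scaled CPM (log2 axis) of the 6 genes against hours, evenly spaced, with SD in red, SASD in blue and Con as a grey square at 0 h; bars are 95% counting intervals. SD and SASD lay close together at 6 h and apart from 12 h on, and SD 48 h was the highest library for every gene but Mmp9.

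Mmp8, the collagenase, stood at 57.4 CPM in Con and at 138, 222, 272 and 562 CPM in SD 6, 12, 24 and 48 h. Under SASD it was at 126, 77.1, 132, 67.6 and 58.4 CPM at 6, 12, 24, 48 and 120 h. Every SD library lay above every SASD library and Con, though the counting interval of SD 6 h overlapped those of SASD 6 h and SASD 24 h, and the intervals of SASD 120 h and Con overlapped. The SD 48 h level was 2.07 times that of the next highest library, SD 24 h.

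Mmp9, the gelatinase that names the granule, was at 236 CPM in Con and at 384, 658, 964 and 849 CPM in SD 6, 12, 24 and 48 h. The SASD values were 404, 318, 509.5, 322 and 278 CPM from 6 to 120 h. Con was the lowest of the 10 libraries, SD 24 h the highest, and SD 6 h lay below SASD 24 h, while the counting intervals of SD 6 h and SASD 6 h overlapped. It had the smallest range of the 6 genes, the highest library being 4.08 times the lowest.

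Mmp25, leukolysin, was at 9.81 CPM in Con and at 11.2, 27.5, 52.8 and 77.3 CPM in SD 6, 12, 24 and 48 h. Its SASD levels were 13.6, 12.3, 27.0, 11.2 and 7.61 CPM. The counting intervals of SD 6 h and Con overlapped, SASD 6 h lay above Con, and those of SASD 24 h and SD 12 h overlapped. The SASD 120 h library was the lowest of all.

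Adam8, the sheddase, was at 43.6 CPM in Con and at 87.4, 153, 126 and 175 CPM in SD 6, 12, 24 and 48 h. Under SASD it was at 78.7, 53.3, 71.3, 40.8 and 40.5 CPM. All 4 SD libraries lay above all 5 SASD libraries and Con, though the intervals of SD 6 h and SASD 6 h overlapped, and the counting intervals of SASD 48 h, SASD 120 h and Con overlapped. Adam8 differed from the other proteases in SD 24 h, which lay below SD 12 h. GENCODE places 46 exonic bases of the antisense transcript Gm16201 over Adam8, whose counts were made without a strand option and are uncertain to that extent.

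Olfm4 was the rarest of the 6, at 1.69 CPM in Con and at 4.18, 8.12, 8.80 and 19.6 CPM in SD 6, 12, 24 and 48 h. Its SASD values were 4.21, 2.497, 1.39, 1.47 and 1.58 CPM. SD and SASD were equal at 6 h, at 44 counts each, after which SD was higher at each time, and the counting intervals of SASD from 12 h on overlapped that of Con. The ratio of the highest to the lowest library was 14.1, the largest of the 6, the lowest being SASD 24 h with 9 counts (95% counting interval 0.638 to 2.65 CPM). On 153 exonic bases Olfm4 overlaps the noncoding Gm6999 of the same strand, so its counts are uncertain there.

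Cd177 followed another course. It stood at 26.2 CPM in Con and at 24.9, 34.2, 97.0 and 148 CPM in SD 6, 12, 24 and 48 h. The SASD values were 26.1, 17.6, 52.5, 47.1 and 46.7 CPM at 6, 12, 24, 48 and 120 h. The counting intervals of both 6 h libraries overlapped that of Con. The level in SASD 24, 48 and 120 h was 2.004, 1.80 and 1.78 times that in Con. The rise in SASD 24 h was not particular to Cd177: Mmp25, Mmp8 and Mmp9 stood at 2.75, 2.30 and 2.16 times Con there. Adam8 was at 1.64 and Olfm4 at 0.827 times Con in that library. The other 5 genes stood at 0.869 to 1.36 times Con in SASD 48 h and at 0.776 to 1.18 times Con in SASD 120 h. The summed level of 8 monocyte markers was 939.5 CPM in Con and 1573, 2174 and 1667 CPM in SASD 24, 48 and 120 h. It was also above Con in SASD 6 h, at 1346 CPM, where Cd177 lay at the level of Con. In SASD 12 h the monocyte markers summed to 801 CPM. Their part in the result was not tested.

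The mixture of the 6 transcripts shifted in SD 48 h. Mmp8 made up 39.8% and Mmp9 41.2% of their summed CPM per kilobase in SD 48 h, against 19.0% and 62.0% in SASD 48 h. Per length, the ratio of Mmp8 over Mmp9 was 0.966 (95% counting interval 0.939 to 0.993) in SD 48 h, 0.412 to 0.526 in the 3 earlier SD libraries, 0.306 to 0.456 in the 5 SASD libraries and 0.354 (0.337 to 0.373) in Con. The ratio of Olfm4 over Cd177 was 0.127 (0.112 to 0.144) in SD 48 h. The earlier SD libraries held 0.0869 to 0.228, so this ratio did not set SD 48 h apart. It was 0.0255, 0.0299 (0.0214 to 0.0406) and 0.0324 in SASD 24, 48 and 120 h, against 0.136 in SASD 12 h and 0.0617 in Con. At 6 h it was 0.161 (0.114 to 0.222) in SD and 0.155 (0.110 to 0.213) in SASD, so the intervals overlapped at 6 h and not at 48 h.

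**Figure D2:**
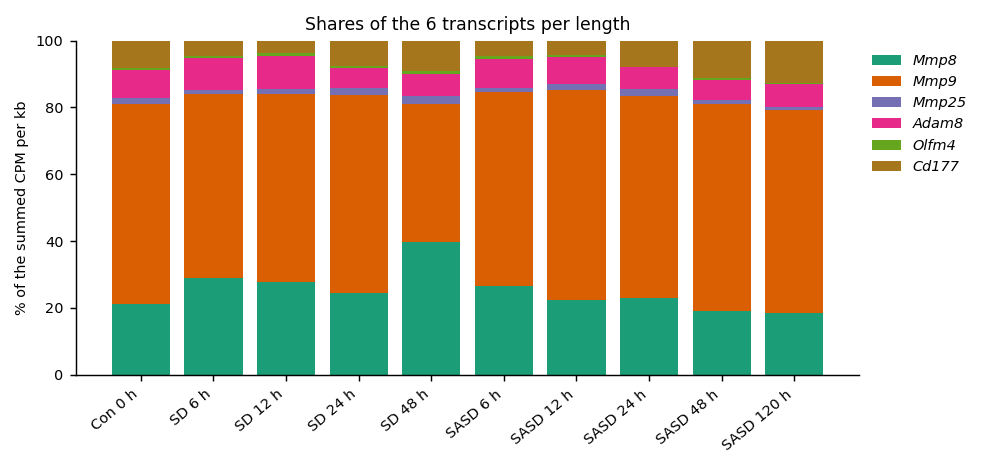
Share of each gene in the summed CPM per kilobase of the 6 genes (percent) in each library. Mmp9 took 41.2% in SD 48 h and 55.1% to 63.1% in the other 9 libraries, and the share of Mmp8 was highest in SD 48 h.

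The comparison of SD with SASD asked how the method of sleep loss bore on these transcripts at the same hour. At 6 h none (0) of the 6 genes was at least 2-fold higher in SD, where 0.0953% of 11537 genes were, and none (0) was 2-fold lower. At 12 h 5 of 6 were at least 2-fold higher in SD (2.73% of 11295 genes), at 24 h 2 of 6 (3.49% of 11135) and at 48 h 6 of 6 (4.22% of 12608). The median log2 ratio of the 6 was -0.04, 1.33, 0.94 and 2.44 at 6, 12, 24 and 48 h, against medians over all genes of 0.00, -0.01, 0.01 and 0.00. These are ratios of single libraries and had no replicate check.

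At 48 h the ratio of SD over SASD was 13.4 for Olfm4 (95% counting interval 9.65 to 19.0), with 289 counts in SD and 42 in SASD. It was 8.31 for Mmp8 (7.90 to 8.73), 6.90 for Mmp25 (6.09 to 7.84) and 4.28 for Adam8 (3.99 to 4.59). Cd177 stood at 3.14 (2.93 to 3.36) and Mmp9 at 2.64 (2.57 to 2.71). The counting intervals of these 6 ratios did not overlap. At 24 h Olfm4 stood alone at 6.31 (3.19 to 14.2), while the other 5 genes lay between 1.77 and 2.07.

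**Figure D3:**
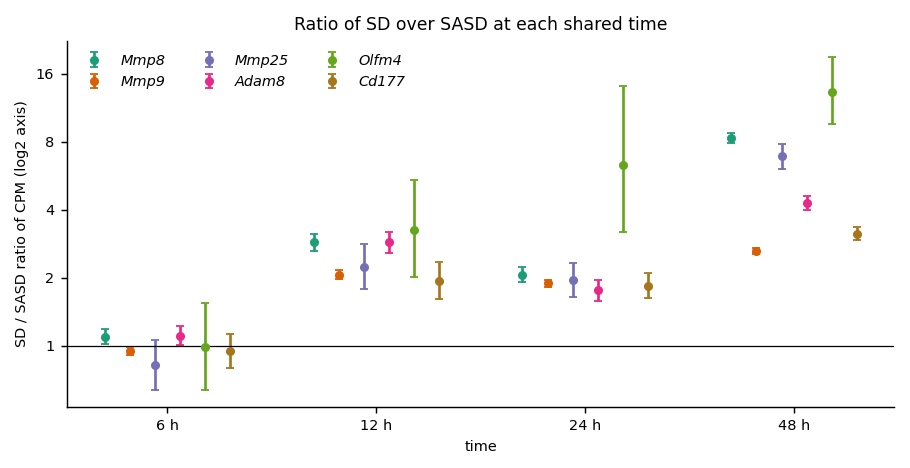
Ratio of CPM in SD over SASD (log2 axis) at each shared time, with 95% counting intervals; the line marks equal levels. The ratios lay between 0.825 and 1.11 at 6 h and between 2.64 and 13.4 at 48 h.

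Set against Con, 3, 5, 6 and 6 of the 6 genes were at least 2-fold higher in SD 6, 12, 24 and 48 h, where 3.39%, 6.04%, 6.17% and 4.18% of all genes were. In SASD 6, 12, 24, 48 and 120 h the number was 2, 0, 4, 0 and 0, where 5.67%, 4.01%, 7.73%, 1.33% and 2.14% of all genes were. In SD 48 h the ratio over Con was 11.6 for Olfm4 (95% counting interval 8.67 to 15.9), 9.79 for Mmp8, 7.89 for Mmp25, 5.64 for Cd177, 4.01 for Adam8 and 3.59 for Mmp9. All of these ratios share the single Con library.

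Fitted over the 4 times together with time as a block, the log2 ratio of SD over SASD was 2.06 ± 0.57 for Olfm4 (SE, 4 times), 1.43 ± 0.41 for Mmp8, 1.23 ± 0.42 for Mmp25 and 1.16 ± 0.28 for Adam8. Cd177 gave 0.89 ± 0.24 and Mmp9 0.83 ± 0.23. None (0) of the 6 passed edgeR's quasi-likelihood test with Benjamini-Hochberg adjustment over 13370 genes, of which 0% were called, the adjusted p running from 0.323 for Adam8 to 0.514 for Mmp25. All 6 had an unadjusted p under 0.05, as did 6.07% of all genes in this direction. Without the 6 h libraries edgeR called Mmp9, Adam8, Olfm4 and Cd177 (adjusted p = 0.0315 to 0.0401) beside 1.76% of all genes, and with no count minimum it called all 6 beside 1.37%. DESeq2 on all 4 times called Mmp9, Adam8 and Olfm4 (adjusted p = 0.00818 to 0.0295) beside 1.17%. With 1 library per method and time, the p-values set the mean difference against how much it varied from time to time. A difference that grows with time widens that spread, as do differences between pooled libraries, part of which may be technical.

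The trend with hours of SD asked which transcripts changed steadily over time. Slopes are log2 units per unit of log2(1 + hours/6). Mmp8 rose with a slope of 0.99 ± 0.09 (SE, 5 libraries) and was called (edgeR adjusted p = 0.0411), the 7th smallest p of 14562 genes. The slopes of Olfm4 at 1.06 ± 0.11, Mmp25 at 1.03 ± 0.12, Cd177 at 0.87 ± 0.15, Mmp9 at 0.66 ± 0.13 and Adam8 at 0.59 ± 0.14 did not pass, at adjusted p = 0.0564, 0.0616, 0.129, 0.172 and 0.240. So 1 of 6 was called where 0.124% of all genes were, and the median slope of the 6 was 0.93, that of all genes -0.01. The call of Mmp8 was lost without SD 6 h (adjusted p = 0.174), 12 h (0.0611) or 24 h (0.211) and with hours on a linear scale (0.346), its slope on the log scale staying between 0.71 and 1.03 in all settings tried. With a term for the haemoglobin split all 6 were called (adjusted p = 4.34e-04 to 0.00856), beside 4.32% of all genes, as they were by DESeq2, beside 2.90%. Without Con and SD 48 h, a setting added after seeing the data, 4 of 6 were called beside 2.29%.

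Under SASD no trend passed the test. The slopes were -0.09 ± 0.15 for Mmp8, 0.01 ± 0.11 for Mmp9, -0.06 ± 0.18 for Mmp25, -0.12 ± 0.10 for Adam8, -0.21 ± 0.17 for Olfm4 and 0.26 ± 0.11 for Cd177 (SE, 6 libraries). None (0) of the 6 was called, nor any of 14602 genes (0%), by edgeR or DESeq2, and 443 genes had an unadjusted p under 0.05, Cd177 among them (unadjusted p = 0.0458); 1.20% of all genes rose at that level. Levels moved up and down between times: Mmp8, Mmp9 and Adam8 were higher at 6 h than in Con, lower again at 12 h and higher at 24 h.

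The difference between the trends was tested over the times both methods share. Olfm4 had the largest SD slope minus SASD slope of the 6, at 1.07 ± 0.16 (SE, 9 libraries), and was called (edgeR adjusted p = 0.0326). Mmp8 stood at 0.74 ± 0.13 (0.0634), Mmp25 at 0.64 ± 0.15 (0.163), Adam8 at 0.58 ± 0.12 (0.0941), Cd177 at 0.46 ± 0.14 (0.341) and Mmp9 at 0.43 ± 0.11 (0.232). Thus 1 of 6 was called where 0.410% of 14138 genes were. The call of Olfm4 was lost without any of SD 6, 12, 24 or 48 h (adjusted p = 0.0614, 0.0871, 0.109 and 0.114), without SASD 12, 24 or 48 h (0.0876, 0.104 and 0.145) and with linear hours (0.0940), the log-scale difference staying between 0.93 and 1.15. With a haemoglobin term 5 of 6 were called beside 1.82% of all genes, and by DESeq2 5 of 6 beside 1.85%.

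**Figure D4:**
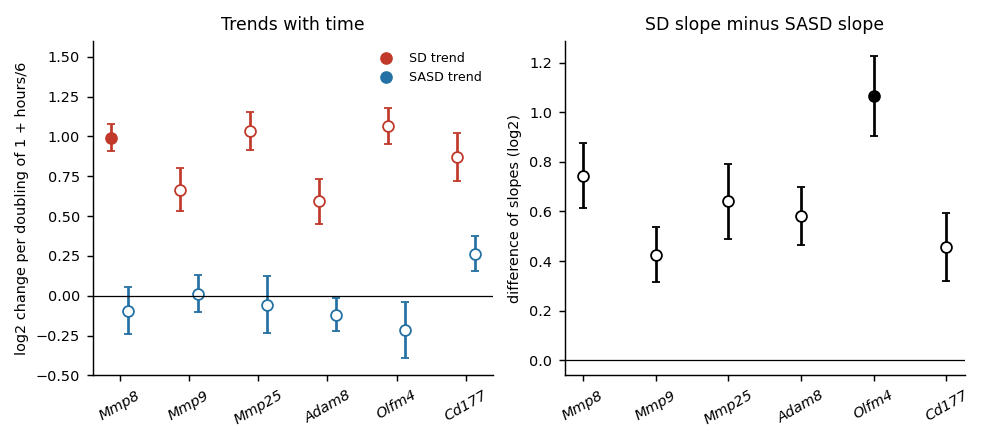
Left, slopes of the 6 genes under SD (red) and SASD (blue) per unit of log2(1 + hours/6); right, SD slope minus SASD slope. Bars are SE, and filled points passed edgeR at an adjusted p under 0.05, namely Mmp8 for the SD trend and Olfm4 for the difference.

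Set against the neutrophil markers of the same library, the genes parted into higher and lower ones. The summed markers were 4.83 times higher in SD 48 h than in SASD 48 h. Per marker count, Olfm4 at 48 h was 2.77 times higher in SD than in SASD (95% counting interval 1.998 to 3.92), Mmp8 1.72 times (1.64 to 1.81) and Mmp25 1.43 times (1.26 to 1.62). Mmp9 stood at 0.546 (0.531 to 0.561), Cd177 at 0.650 (0.607 to 0.696) and Adam8 at 0.887 (0.827 to 0.951). With the geometric mean of the markers, which gives each marker the same weight, the ratios were 1.98 for Olfm4, 1.23 for Mmp8 and 1.02 for Mmp25, and 0.391 for Mmp9, 0.465 for Cd177 and 0.635 for Adam8.

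At earlier times most ratios per marker lay below 1. At 12 h they ran from 0.660 for Cd177 to 1.10 for Olfm4. The 12 h intervals of Olfm4 (0.687 to 1.84), Mmp8 (0.897 to 1.06) and Adam8 (0.879 to 1.08) held 1. Those of the same genes at 6 h held 1 as well. With the geometric mean of the markers, Mmp8 and Adam8 stood at 1.07 and 1.08 at 6 h. At 24 h the ratio per marker count was 2.25 for Olfm4 (1.13 to 5.07) and 0.629 to 0.736 for the other 5. In every library Mmp9 gave the most per 1000 marker counts, at 148, 130, 157 and 84.0 in SD 6, 12, 24 and 48 h and 154 to 233 in the 5 SASD libraries, with 123 in Con. Olfm4 gave 1.61, 1.602, 1.43 and 1.94 in the SD libraries, and 1.90, 1.45, 0.638, 0.701 and 0.919 in SASD 6, 12, 24, 48 and 120 h, with 0.880 in Con. These values ranged more widely among the SASD libraries, which held 9 to 44 counts of Olfm4, than among the SD ones, with 44 to 289. Lower counts carry a wider counting error, so the ranges do not show that the level itself varied more under SASD. Markers of less mature cells moved with SD 48 h as well. The 5 secondary granule genes summed to 2199.5 CPM in SD 48 h and 455 CPM in SASD 48 h. Chil3 made up most of the SASD 48 h sum, at 394 CPM, and stood at 791 CPM in SD 48 h. Ltf, Ngp and Camp stood at 305, 462 and 77.1 CPM in SD 48 h. In SASD 48 h they stood at 9.98, 7.33 and 0.768 CPM. Lcn2 was at 565 CPM in SD 48 h and 42.8 CPM in SASD 48 h. The 4 primary granule genes summed to 64.3 CPM in SD 48 h and 1.54 CPM in SASD 48 h. The part of these markers in the results was not tested.

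**Figure D5:**
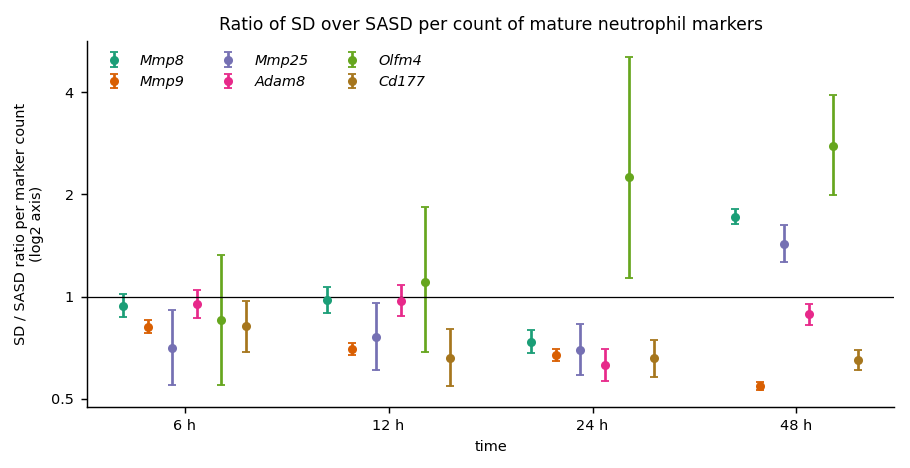
Ratio of SD over SASD at each shared time after dividing each gene's counts by the summed counts of 10 mature neutrophil markers of the same library (log2 axis, 95% counting intervals). At 48 h Olfm4, Mmp8 and Mmp25 lay above 1 and Adam8, Cd177 and Mmp9 below it.

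The genes nearest in pattern were found by the root mean square difference of log2 levels, each centred over the 10 libraries, among 12032 genes. Nearest to Mmp8 were Tarm1, an activating receptor gene of myeloid cells, at 0.21, the chemokine receptor gene Cxcr1 at 0.23 and Chil1, a chitinase-like gene, at 0.26. Mmp9 lay nearest to Pygl, liver glycogen phosphorylase, and Rbm47, an RNA-binding protein gene, at 0.17 each, and Ccr1, a chemokine receptor gene, at 0.18. Mmp25 had Chil1 at 0.33, the receptor gene Trem1 at 0.33 and 9830107B12Rik at 0.35. Adam8 had the sialic acid receptor genes Siglece at 0.17 and Cd33 at 0.19, and C5ar1, which encodes a complement receptor, at 0.20. Olfm4 had Ifitm1, an interferon-induced membrane protein gene, at 0.31, the decoy receptor gene Il1r2 at 0.35 and Tarm1 at 0.46. Cd177 had Ms4a4a at 0.32, Ms4a6d at 0.34 and Tlr2, a sensor of bacterial lipoproteins, at 0.34. Cxcr1, Trem1 and Il1r2 are themselves among the 10 mature neutrophil markers used above. Among the 6 themselves the closest were Adam8 and Mmp9 at 0.31 and the farthest Olfm4 and Cd177 at 1.05. The libraries share their depth and cell mixture in these values.

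Other genes of the same pathway were read from lists by role. Of the inhibitors of metalloproteinases, 3 of 6 had enough counts to be tested and 0 were called in any fit. Timp3, a matrix-bound inhibitor, gave a log2 ratio of SD over SASD of -0.95 ± 0.30 and Reck, a membrane-anchored inhibitor, 0.47 ± 0.22 (edgeR adjusted p = 0.453 and 0.668). Timp1, a secreted inhibitor, had 0 to 18 counts per library. Among 19 other matrix metalloproteinases and ADAM genes 10 were tested for SD against SASD, 0 were called, and their median log2 ratio was -0.02. In the difference of trends 1 of 12 was called, where 0.410% of all genes were. This was Adam19, a membrane metalloproteinase, at 0.34 ± 0.05 (edgeR adjusted p = 0.0337). It stood at 122, 183, 165 and 240.1 CPM in SD 6, 12, 24 and 48 h and at 87.7 to 117 CPM in the SASD libraries, with 108 CPM in Con.

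Of 9 other genes of gelatinase granules and their membranes 0 were called in any fit, and the median SD slope was 0.27. Hp, haptoglobin, gave the highest log2 ratio of SD over SASD at 1.199 ± 0.28 and Cybb, the membrane subunit of the NADPH oxidase, the lowest at -0.01 ± 0.14 (edgeR adjusted p = 0.310 and 0.988). Of 10 partners and substrates 0 were called. Pecam1, which CD177 binds, was lowest at -0.18 ± 0.19 (adjusted p = 0.840), and Elane, neutrophil elastase, was highest, resting on 161 counts in SD 48 h with 0, 0 and 1 in the earlier SD libraries, and on 0, 0, 0 and 4 in SASD 6, 12, 24 and 48 h. Among 10 genes of granule release 1 was called in the difference of trends, where 0.410% of all genes were. The called gene was Cd63, a granule membrane tetraspanin, at 0.46 ± 0.06 (edgeR adjusted p = 0.0267). It was at 10.6, 15.3, 14.4 and 21.4 CPM in SD 6, 12, 24 and 48 h. In SASD 6, 12, 24 and 48 h it was at 7.28, 8.03, 8.06 and 7.51 CPM. Con stood at 9.99 CPM, between SD 6 h and these SASD values. Of 6 transcription factors of granulopoiesis 0 were called, with log2 ratios of SD over SASD from 0.06 ± 0.17 for Gfi1, a repressor, to 0.95 ± 0.25 for Cebpb (edgeR adjusted p = 0.954 and 0.356). Mature neutrophil markers had 5 of 10 called in the difference of trends (0.410% of all genes) and 2 of 10 in the SD trend (0.124%). For SD against SASD 0 of 10 were called (0% of all genes), with a median log2 ratio of 1.58 beside the 1.19 of the 6 genes.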

How the data were processed

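Libraries were made from total RNA of the blood of 3 pooled mice with an Illumina Truseq v2 kit, per the labels' protocols. Per the submitters' processing notes, reads were trimmed with Trimmomatic 0.39 and aligned with STAR 2.7.9a, the build being mm10. Read pairs over exons were counted per gene with featureCounts 2.0.3, with the annotation of a 10x Genomics mm10 package and no strand option, per the file headers. The deposited values are raw counts. Symbols, positions and exon lengths came from GENCODE M21, which may differ from that annotation (127 genes had no symbol).

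TMM factors and quasi-likelihood tests used edgeR 4.0.16 (R 4.3.3), on genes whose mean count over the fitted libraries reached 10, at a Benjamini-Hochberg adjusted p under 0.05; DESeq2 1.42.0 was an alternative. SD against SASD had 8 libraries, the trends 5 and 6, their difference 9. The fits were tested on simulated data. Ratios carry exact Clopper-Pearson 95% counting intervals (scipy 1.17.1), which cover counting error only. The 2-fold counts and medians of ratios used a prior count of 2 and genes whose mean count in both libraries reached 25.

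Named genes were the 6, the 3 nearest to each, and, of each pathway list, those called in any fit or else the lowest and highest for SD against SASD. Genes and lists were chosen with earlier results of these data known.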

Additional observations from a re-analysis of the deposited data

Results flagged for a closer look

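The trend of Olfm4 with time differed between the methods: the SD slope minus the SASD slope was 1.07 ± 0.16 on the log2 scale (SE, 9 libraries; edgeR adjusted p = 0.0326). In single libraries SD lay above SASD at 12, 24 and 48 h and not at 6 h, and the SASD 24 h value rested on 9 counts. The call was lost without most single libraries, as given with the test.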

How the results depend on the processing

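The direction of SD over SASD, of the SD slope and of the difference of slopes was above 0 for all 6 genes under every alternative run, whereas calls varied. Genes called for SD against SASD numbered 0, with 1082 at an unadjusted p under 0.05; they were 160 by DESeq2, 389 with no count minimum, and 0 to 237 leaving out a time. For the SD trend 18 became 456 by DESeq2, 63 with no count minimum, 0 with linear hours, 796 with a haemoglobin term, 314 without Con and SD 48 h (added after seeing the data) and 0 to 511 leaving out a library. For the difference of trends 58 became 268, 88, 6 and 264 in the same order, and 0 to 117 leaving out a library. For the SASD trend the count of 0 became 1 without SASD 48 h and was otherwise 0. At a mean count of at least 100 the genes at 2-fold between SD and SASD numbered 18 and not 116 at 6 h, 484 and not 759 at 24 h, and 390 and not 753 at 48 h.

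Over all alternatives run but linear hours, SASD slopes ran from -0.31 to 0.072 for Mmp8, -0.15 to 0.17 for Mmp9 and -0.27 to 0.21 for Mmp25. They changed sign for Mmp8 (0.072) and Mmp25 (0.21) without SASD 120 h. For Mmp9 the sign changed with linear hours (-0.0024 per hour), with the haemoglobin term (-0.0067) and without Con (-0.15). It also changed without SASD 24 h (-0.0062) and without Con and SASD 48 h (-0.14). With the geometric mean of markers, log2 values per marker over Con changed sign for Mmp9 in SD 12 h (-0.15) and for Cd177 in SD 24 h (-0.038). The cause was not tested. Scaling by total counts moved the median of all genes by up to -0.49 over Con (SASD 24 h) and by 0.21 for SD over SASD at 24 h. The labels carry no replicate numbers, so no block by replicate was fitted; SD against SASD was paired by time, and without that block 0 genes were called as well. With 1 pooled library per group, spread between animals was not measured.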
